A study of Homo sapiens with 27 samples.

Results

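The 9 genes described here encode the receptors, docking proteins and binding proteins of insulin and insulin-like growth factor (IGF) signalling: INSR, IGF1R, IGF2R, IRS1, IRS2, IGFBP2, IGFBP3, IGFBP4 and IGFBP6. They were taken by gene symbol, from probe sets annotated to a single gene, and were read on 28 of the 49395 probe sets of the array. A probe set is a group of short probes that together read 1 stretch of a transcript. Each gene is represented by its probe set with the highest mean over all arrays, and its other probe sets serve as a check. All 9 passed a filter on low signal and are among the 12386 genes tested.

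The 27 arrays fall into 9 groups of 3, from 3 human cancer cell lines. Cells of EBC-1 (non-small cell lung cancer), MKN-45 (gastric cancer) and HCC827 (non-small cell lung cancer) were given either the solvent DMSO or SGX-523 (1 uM, during 24 h or 48 h). SGX-523 is a small-molecule inhibitor of the receptor tyrosine kinase MET. By the submitters' account EBC-1 and MKN-45 depend on MET, while in HCC827 the receptor is active but not required, so HCC827 is the negative control. The labels name no genetic change in any line. They do not say how long DMSO was given, and both treated times of a line share its 3 DMSO arrays as controls. The 3 arrays of a group are biological replicates by their titles. Each p-value sets a difference against the spread between such cultures within a group, pooled over the 9 groups of the 3 lines. That spread is between cultures of a line, not between lines. In RNA from bulk cultures, a change in RNA per cell and a change in the mix of cells cannot be told apart.

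Insulin and the IGFs bind related receptors at the cell surface, whose kinases phosphorylate the docking proteins IRS1 and IRS2, which in turn recruit PI3K and activate AKT. AKT keeps the FOXO transcription factors out of the nucleus, and INSR and IRS2 are known targets of these factors, so the pathway can regulate the transcripts of its own upper part. A family of IGF binding proteins, secreted from many cells, holds the IGFs and governs how much reaches the receptors. In cancer cells this pathway runs beside other receptor kinases such as MET and converges with them on PI3K and on the ERK cascade.

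The promoters of the receptors and docking proteins that changed most in EBC-1 are shown here because their transcripts moved in opposite directions, and to let the sequence before each start be compared. They come from the RefSeq promoter table of build GRCh38.p14, in which all 9 genes have an entry, with 11 windows in all. Each line gives the 250 bases before the annotated start, 5′ to 3′ on the gene's strand, with motif matches in capitals. The windows are chr19:7294415-7294664 on the minus strand for INSR, chr15:98648289-98648538 on the plus strand for IGF1R, chr2:226799821-226800070 on the minus strand for IRS1 and chr13:109786584-109786833 on the minus strand for IRS2.
INSR: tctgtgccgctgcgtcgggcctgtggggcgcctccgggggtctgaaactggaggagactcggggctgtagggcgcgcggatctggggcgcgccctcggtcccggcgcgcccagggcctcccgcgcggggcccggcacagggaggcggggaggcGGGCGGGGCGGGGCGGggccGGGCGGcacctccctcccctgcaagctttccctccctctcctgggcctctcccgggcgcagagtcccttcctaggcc
IGF1R: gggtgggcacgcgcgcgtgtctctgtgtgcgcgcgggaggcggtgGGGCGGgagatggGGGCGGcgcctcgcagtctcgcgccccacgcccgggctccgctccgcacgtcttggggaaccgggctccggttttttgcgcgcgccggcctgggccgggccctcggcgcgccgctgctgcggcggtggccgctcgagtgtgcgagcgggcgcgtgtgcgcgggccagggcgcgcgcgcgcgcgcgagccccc
IRS1: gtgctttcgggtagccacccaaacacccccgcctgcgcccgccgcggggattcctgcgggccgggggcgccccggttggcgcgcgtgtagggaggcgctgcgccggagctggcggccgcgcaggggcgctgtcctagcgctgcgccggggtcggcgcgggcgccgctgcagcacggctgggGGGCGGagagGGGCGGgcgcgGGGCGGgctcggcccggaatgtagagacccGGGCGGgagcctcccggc
IRS2: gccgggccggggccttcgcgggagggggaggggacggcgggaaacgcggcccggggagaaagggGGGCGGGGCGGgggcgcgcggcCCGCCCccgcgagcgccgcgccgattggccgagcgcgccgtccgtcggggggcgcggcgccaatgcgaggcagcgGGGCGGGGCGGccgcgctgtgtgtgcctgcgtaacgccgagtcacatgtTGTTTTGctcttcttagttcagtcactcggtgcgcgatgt

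In all, 4 motifs were searched on both strands of windows that reach from 250 bases before to 50 bases after the start. The GC box GGGCGG, the letters that SP1 binds, was found in 10 of the 11 windows and in 45% of all 35116 promoters of the table. Neighbouring copies overlap in INSR, IGF2R and IRS2. CAAAACA, the core of the insulin response element known from the IGFBP1 promoter, was found in the IRS2 window alone, as its reverse complement TGTTTTG, with the leftmost base at position -40. That core occurs in 4.92% of all promoters. The FOXO core GTAAACA was found in the IGFBP6 window alone, at position -186, and occurs in 3.42% of all promoters. The AP-1 site TGACTCA was found in none of the 11 windows and occurs in 4.95% of all promoters. The INSR, IGF1R and IRS1 windows carried GC boxes only. A match describes the letters in these windows and is not a measurement of binding.

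The deposited values are log2 signals. Array medians lay between 5.71 and 5.73 in HCC827 but between 5.02 and 5.14 in EBC-1 and MKN-45. From this and the values shared between arrays, the 9 HCC827 arrays appear to have been normalized apart, so no HCC827 level is compared with another line. Replicate 3 of HCC827 with SGX-523 at 24 h stood apart, with Pearson's r of 0.962 to 0.967 over all probe sets against the other HCC827 arrays, while r within the 8 other groups was at least 0.9958. That array enters the spread shared by all comparisons, and results that rest on it are given with and without it. As a check that the inhibitor acted, 6 of 6 genes of ERK output (DUSP6, SPRY4, ETV5, ETV4, SPRED2, PHLDA1) fell in EBC-1 and in MKN-45 at both times. In HCC827, 0 were called at 24 h and 1 at 48 h. On DMSO, 5 of 6 gastric or intestinal markers were above the array median on all MKN-45 arrays and 3 of 4 lung adenocarcinoma markers on all HCC827 arrays. In EBC-1 this held for 2 of these 4 (NKX2-1 and NAPSA), and for none of the 3 squamous lung markers measured. The same 2 lung adenocarcinoma markers and 2 of the squamous ones were above the median on all MKN-45 arrays on DMSO. So were 2 of the 6 gastric or intestinal markers on all EBC-1 arrays, with CDH17 at 11.4 there and 8.7 in MKN-45. LGALS4, TFF1, TFF3 and REG4 went the other way, at 10.80, 10.41, 7.41 and 10.62 in MKN-45 and 7.03, 3.48, 3.04 and 4.44 in EBC-1. CDX1 was below the median on all DMSO arrays of both lines. Most of the gastric list was thus higher in MKN-45, while the lung lists did not mark EBC-1 off from MKN-45 as lung. Of 6 fibroblast markers, COL1A1, COL1A2, COL3A1 and DCN stayed below the median on all EBC-1 arrays. LUM alone was high there, and the log2 of the list's summed signal was 10.10 to 10.23 on DMSO, 11.77 to 11.89 at 24 h and 12.05 to 12.16 at 48 h. Of 5 leukocyte markers, PTPRC and CD3E were below the median on every array. CD14 was above it on all EBC-1 arrays (means of 7.11 on DMSO, 6.49 at 24 h and 5.72 at 48 h). LYZ was bright in MKN-45 (11.46 on DMSO) and went from 3.83 on DMSO to 6.04 and 5.70 in EBC-1. The log2 of that list's summed signal was 7.61 to 7.80 on DMSO, 7.69 to 7.76 at 24 h and 7.28 to 7.42 at 48 h in EBC-1 and 11.44 to 11.53 on DMSO, 11.46 to 11.64 at 24 h and 11.44 to 11.75 at 48 h in MKN-45. The gastric list's summed signal in MKN-45 went from 12.34 to 12.45 on DMSO to 10.67 to 10.76 at 48 h, and in EBC-1 it went from 11.39 to 11.51 on DMSO to 12.35 to 12.55. The squamous list went from 8.11 to 8.43 to 10.92 to 11.31 in MKN-45, carried by SOX2. The part of these marker changes in the results below was not tested.

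Calls rest on limma's p after Benjamini-Hochberg adjustment across all 12386 genes, with 0.05 as the threshold. Differences are SGX-523 minus DMSO on the log2 scale, ± SE, with 3 arrays a group. In EBC-1, 6 members rose and 1 fell at 24 h, beside 31.2% of all genes called higher and 28.1% called lower. At 48 h, 5 rose and 3 fell, beside 32.8% and 28.9%. Of these, the rise of IGFBP6 at 24 h and the falls of IGFBP2 and IGFBP6 at 48 h come from signals below the array median on all 9 EBC-1 arrays, of genes that passed the filter through other lines. In MKN-45, 4 rose and 3 fell at 24 h (33.4% and 26.9% of all genes), and 6 rose and 2 fell at 48 h (36.4% and 26.2%). IGFBP3, called at both times, and IGFBP6, called at 48 h, were below the median on all 9 MKN-45 arrays. With arrays centred on external controls, the 48 h calls of MKN-45 came to 4, with INSR and IGF2R higher and IRS2 and IGFBP4 lower. With backgrounds this high, the size of the changes is given beside the counts. In EBC-1 5 of the 9 were called with at least a 2-fold change at each time, against 15.9% of all genes at 24 h and 17.2% at 48 h. In MKN-45 INSR alone was, against 15.3% and 17.3%. The median difference of the members was 0.46 and 0.45 in EBC-1 and 0.11 and 0.34 in MKN-45, where the median of all genes lay between 0.04 and 0.07.

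**Figure D1:**
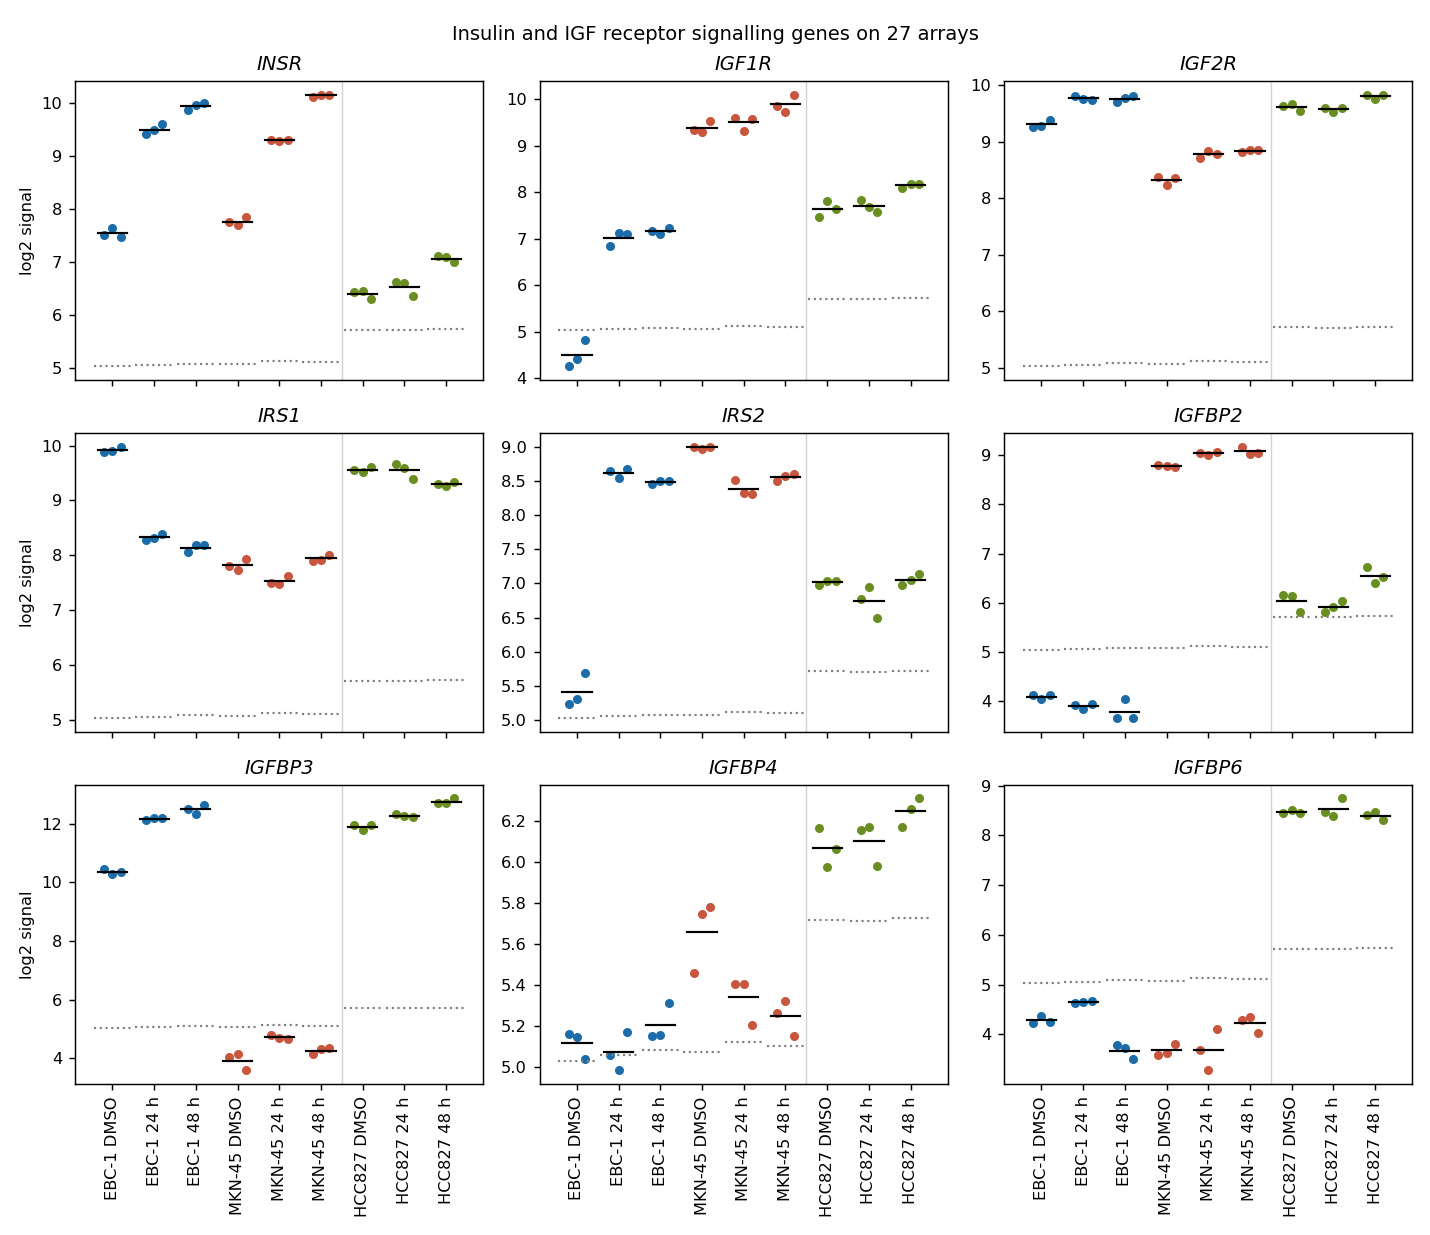
Deposited log2 signal of the 9 genes on all 27 arrays, with 1 point per array, black bars for group means and dotted bars for the array median. 24 h and 48 h are SGX-523 at 1 uM. INSR climbs in EBC-1 and MKN-45 alike, from 7.46 to 7.83 on DMSO to 9.86 to 10.15 at 48 h. IGF1R climbs most in EBC-1, from 4.26 to 4.82 on DMSO. IRS2 climbs in EBC-1, from 5.24 to 5.69 on DMSO, and drops in MKN-45, while IRS1 drops most in EBC-1. The grey line separates HCC827, whose level cannot be compared with the other lines.

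The external controls, spiked into the samples and so not part of the cells' RNA, were brighter on treated than on DMSO arrays. By the median of 42 such probe sets the shift was 0.32 and 0.39 in EBC-1, 0.30 and 0.27 in MKN-45, and 0.07 and -0.05 in HCC827, at 24 h and 48 h. Centring each array on these controls lowers every difference in EBC-1 and MKN-45 by that amount. Calls against DMSO that were lost, gained or turned under it are marked below. All changes in the text are relative to the deposited scale, on which the median gene hardly moved.

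INSR, the insulin receptor, rose strongly in both MET-dependent lines. Its log2 signals in EBC-1 were 7.50, 7.64 and 7.46 on DMSO, 9.40, 9.48 and 9.59 at 24 h, and 9.86, 9.96 and 9.98 at 48 h. In MKN-45 they were 7.75, 7.69 and 7.83 on DMSO, 9.30, 9.28 and 9.30 at 24 h, and 10.11, 10.15 and 10.15 at 48 h. In both lines the 3 groups were stacked in time order without overlap. The rise was 1.96 ± 0.07 (3.88-fold, adjusted p = 3.5e-17) and 2.40 ± 0.07 (5.28-fold, adjusted p = 5.1e-19) in EBC-1, and 1.53 ± 0.07 (2.90-fold, adjusted p = 5.0e-15) and 2.38 ± 0.07 (5.20-fold, adjusted p = 7.1e-19) in MKN-45. Set against MKN-45, the EBC-1 rise at 24 h was larger by 0.42 ± 0.11 (adjusted p = 0.0022), a call that is lost with the arrays centred on external controls (0.41, adjusted p = 0.067). On the other INSR probe sets that passed the filter this difference was 0.62, called, and 0.07 and 0.23, not called. At 48 h the responses differed by 0.02, with a 95% confidence interval of -0.20 to 0.24. On external controls the 48 h difference between the lines was -0.10, not called.

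In HCC827, INSR read 6.43, 6.46 and 6.29 on DMSO, 6.62, 6.61 and 6.35 at 24 h, and 7.11, 7.08 and 6.99 at 48 h. The 24 h arrays overlapped those on DMSO, and the 48 h arrays stood above both. At 24 h the difference was 0.13 ± 0.07 (adjusted p = 0.29), or 0.22 without the odd replicate 3. At 48 h it was a rise of 0.67 ± 0.07 (1.59-fold, adjusted p = 4.8e-07). That rise was smaller than in EBC-1 by 1.73 ± 0.11 and than in MKN-45 by 1.71 ± 0.11 (adjusted p = 9.1e-13 and 1.2e-12). The call for INSR in the negative control line at 48 h held under every setting tried.

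IGF1R, the receptor kinase for the IGFs, rose strongly in EBC-1 from a low start. There it read 4.26, 4.41 and 4.82 on DMSO, under the array median on all 3 arrays, 6.85, 7.12 and 7.11 at 24 h, and 7.17, 7.10 and 7.23 at 48 h. The rise was 2.53 ± 0.13 (5.77-fold, adjusted p = 6.8e-15) and 2.67 ± 0.13 (6.37-fold, adjusted p = 1.9e-15). Since the DMSO signal was that dim, the size of the change is less sure than its direction. MKN-45 began high, at 9.34, 9.29 and 9.54, with 9.60, 9.32 and 9.58 at 24 h and 9.85, 9.72 and 10.10 at 48 h. The 24 h arrays overlapped the DMSO arrays (0.11 ± 0.13, adjusted p = 0.48, though the mean of its probe sets was called at 0.17, adjusted p = 0.027), and those at 48 h were above them by 0.50 ± 0.13 (adjusted p = 0.0013), a call lost on external controls (0.23, adjusted p = 0.15). The response was larger in EBC-1 than in MKN-45 by 2.42 ± 0.18 at 24 h and 2.17 ± 0.18 at 48 h (adjusted p = 6.6e-11 and 2.8e-10). That difference depends on the probe set. On the next brightest it was 1.09 and 0.88, both called. It was 0.33 and 0.39 on the one after that, and -0.16 and 0.21 on the dimmest that passed the filter, none called. Treated EBC-1 arrays still read lower than every MKN-45 array on DMSO.

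In HCC827, IGF1R read 7.46, 7.82 and 7.64 on DMSO, 7.83, 7.67 and 7.58 at 24 h, and 8.09, 8.18 and 8.18 at 48 h. The arrays at 24 h overlapped DMSO (0.05 ± 0.13, adjusted p = 0.81, and 0.11 without replicate 3). At 48 h it rose by 0.51 ± 0.13 (1.42-fold, adjusted p = 0.0047). The MKN-45 and HCC827 responses at 48 h differed by -0.01, with a 95% confidence interval of -0.37 to 0.36.

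IGF2R is the mannose 6-phosphate receptor that carries IGF2 to lysosomes and has no kinase. On its brightest probe set it shifted by a small and even amount in EBC-1 and MKN-45. EBC-1 read 9.26, 9.28 and 9.39 on DMSO, 9.81, 9.75 and 9.74 at 24 h, and 9.71, 9.77 and 9.81 at 48 h. MKN-45 read 8.37, 8.24 and 8.37, then 8.72, 8.84 and 8.79, then 8.81, 8.85 and 8.85. In both lines all treated arrays were above all DMSO arrays. IGF2R rose by 0.46 ± 0.05 and 0.45 ± 0.05 in EBC-1 and by 0.46 ± 0.05 and 0.51 ± 0.05 in MKN-45, at 24 h and 48 h (1.37-fold to 1.42-fold, adjusted p of 9.5e-09 to 7.2e-08). With arrays centred on external controls these were 0.14 and 0.06 in EBC-1 and 0.15 and 0.24 in MKN-45, and only the last was called (adjusted p = 0.039). The lines' responses differed by 0.00 ± 0.08 at 24 h, with a 95% confidence interval of -0.16 to 0.16. That likeness does not hold on the dimmest IGF2R probe set. There the EBC-1 response was lower than that of MKN-45, by -0.76 at 24 h and -1.25 at 48 h, both called.

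HCC827 read 9.63, 9.67 and 9.54 for IGF2R on DMSO, 9.60, 9.52 and 9.59 at 24 h, and 9.82, 9.76 and 9.83 at 48 h. The 24 h arrays overlapped those on DMSO and the 48 h arrays were higher. The difference was -0.04 ± 0.05 and then 0.19 ± 0.05 (adjusted p = 0.63 and 0.013), with -0.05 at 24 h without replicate 3. The 48 h call was lost without DMSO replicate 3 (adjusted p = 0.082), without 48 h replicate 3 (adjusted p = 0.052), in a fit of HCC827 alone (adjusted p = 0.11) and on external controls (adjusted p = 0.14).

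The docking proteins moved apart from each other in EBC-1. IRS1, the docking protein that couples both receptor kinases to PI3K, read 9.89, 9.89 and 9.98 on DMSO, 8.28, 8.31 and 8.39 at 24 h, and 8.05, 8.18 and 8.19 at 48 h. All treated arrays lay far below all DMSO arrays, and IRS1 fell by 1.59 ± 0.07 (3.02-fold, adjusted p = 5.8e-16) and by 1.78 ± 0.07 (3.43-fold, adjusted p = 5.1e-17). In MKN-45 it read 7.81, 7.73 and 7.93 on DMSO, 7.50, 7.48 and 7.62 at 24 h, and 7.89, 7.92 and 8.01 at 48 h. The 24 h arrays were lower (-0.29 ± 0.07, adjusted p = 8.8e-04), a call lost in the mean of the IRS1 probe sets (-0.16, adjusted p = 0.14), and the 48 h arrays overlapped DMSO (0.12 ± 0.07, adjusted p = 0.15). The EBC-1 response was lower than that of MKN-45 by -1.30 ± 0.10 at 24 h and -1.90 ± 0.10 at 48 h (adjusted p = 1.2e-10 and 7.5e-14). In HCC827 IRS1 read 9.55, 9.52 and 9.61 on DMSO, 9.67, 9.58 and 9.39 at 24 h, and 9.31, 9.26 and 9.34 at 48 h. It was -0.01 ± 0.07 at 24 h (adjusted p = 0.94, and 0.07 without replicate 3) and fell by 0.26 ± 0.07 at 48 h (adjusted p = 0.0093). That last call was lost in a fit of HCC827 alone (adjusted p = 0.086), in the mean of the probe sets (-0.07) and on external controls (-0.21, adjusted p = 0.27).

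IRS2, the other docking protein and the main one in liver and beta cells, gave the largest change of the 9 genes and went opposite ways in the MET-dependent lines. In EBC-1 it read 5.24, 5.31 and 5.69 on DMSO, 8.64, 8.54 and 8.67 at 24 h, and 8.45, 8.50 and 8.49 at 48 h. The rise was 3.20 ± 0.10 (9.22-fold, adjusted p = 1.1e-18) and 3.07 ± 0.10 (8.40-fold, adjusted p = 2.0e-18), with no overlap. The DMSO signal lay not far above the array median, so the size of this rise is less sure than its direction. In MKN-45 it read 9.0, 8.97 and 9.0 on DMSO, 8.52, 8.32 and 8.30 at 24 h, and 8.50, 8.58 and 8.60 at 48 h. Here all treated arrays were below all DMSO arrays, and IRS2 fell by 0.61 ± 0.10 (1.53-fold, adjusted p = 1.3e-05) and by 0.43 ± 0.10 (1.35-fold, adjusted p = 7.1e-04). The responses differed between the lines by 3.81 ± 0.14 at 24 h and 3.50 ± 0.14 at 48 h (adjusted p = 4.1e-16 and 9.6e-16). The treated groups of the 2 lines met: ordered by mean, MKN-45 at 24 h, EBC-1 at 48 h, MKN-45 at 48 h and EBC-1 at 24 h each overlapped the next, between EBC-1 on DMSO below and MKN-45 on DMSO above. In HCC827 IRS2 read 6.97, 7.04 and 7.04 on DMSO, 6.78, 6.95 and 6.49 at 24 h, and 6.98, 7.05 and 7.13 at 48 h. It was -0.28 ± 0.10 at 24 h (adjusted p = 0.21, and -0.15 without replicate 3), with all arrays below DMSO, and called at -0.39 without replicate 2 (adjusted p = 0.025). At 48 h it was 0.04 ± 0.10 (adjusted p = 0.86).

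**Figure D2:**
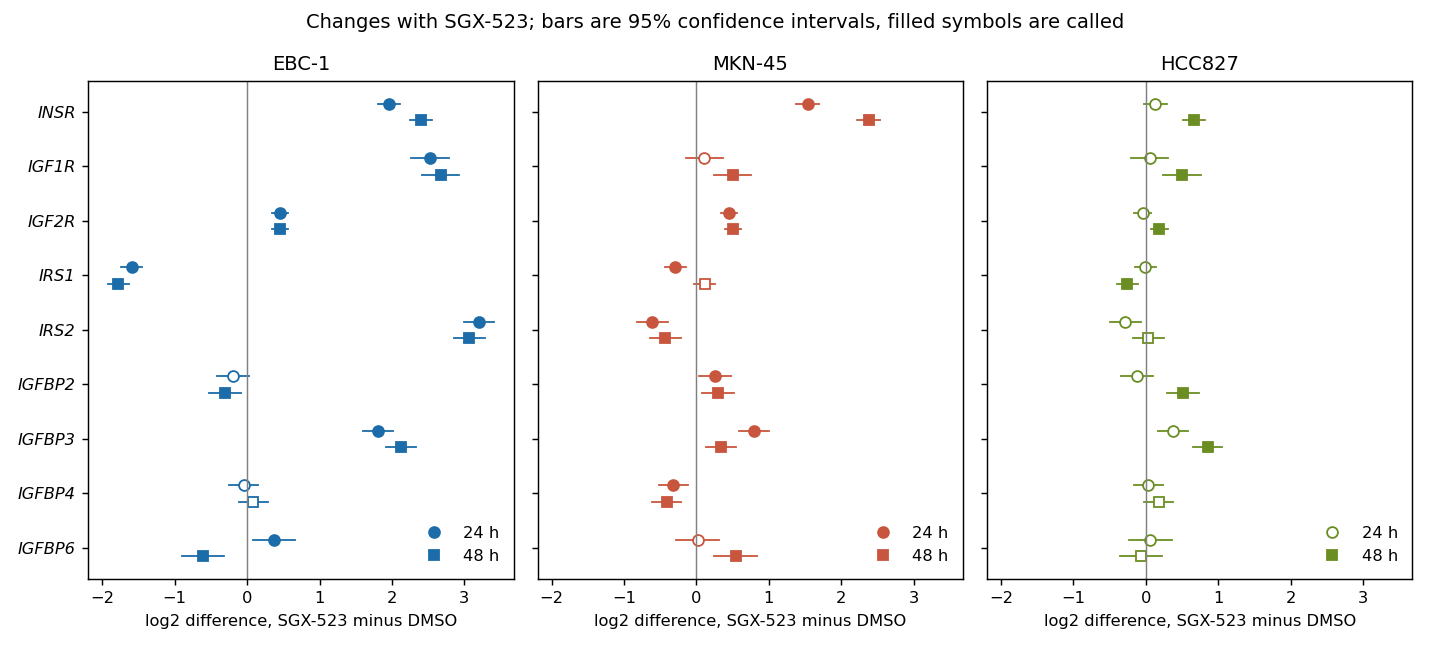
Log2 difference between SGX-523 and DMSO for each gene, with circles for 24 h, squares for 48 h, bars for 95% confidence intervals and filled symbols where the adjusted p was under 0.05, in 1 panel per line. In EBC-1 IRS2, IGF1R, INSR and IGFBP3 lie between 1.80 and 3.20 while IRS1 lies at -1.59 and -1.78. In MKN-45 INSR alone passes 1, and in HCC827 no symbol is filled at 24 h.

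Among the binding proteins IGFBP3, the main IGF carrier in serum, was the most changed. In EBC-1 it read 10.47, 10.30 and 10.34 on DMSO, 12.12, 12.20 and 12.19 at 24 h, and 12.51, 12.34 and 12.63 at 48 h. It rose by 1.80 ± 0.10 (3.49-fold, adjusted p = 4.6e-14) and 2.13 ± 0.10 (4.37-fold, adjusted p = 1.5e-15), with all treated arrays above DMSO. IGFBP3 was also above the array median on all HCC827 arrays. There the values were 11.94, 11.80 and 11.95 on DMSO, 12.32, 12.28 and 12.22 at 24 h, and 12.70, 12.69 and 12.86 at 48 h. The 24 h arrays were all above DMSO but the difference was not called (0.37 ± 0.10, adjusted p = 0.21). The other IGFBP3 probe set went the other way at 24 h (-0.46), also not called, so the direction is not settled. The values that follow are for the brightest one. Without replicate 3 it was 0.40 (adjusted p = 0.10), and it was called without replicate 1 (0.35, adjusted p = 0.037) or without replicate 2 (0.37, adjusted p = 0.029). At 48 h IGFBP3 rose in HCC827 by 0.85 ± 0.10 (1.81-fold, adjusted p = 8.1e-07), the largest change of the 9 genes in that line.

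In MKN-45 IGFBP3 read 4.03, 4.13 and 3.59 on DMSO, 4.78, 4.70 and 4.65 at 24 h, and 4.13, 4.31 and 4.34 at 48 h, below the array median on all 9 arrays. It was higher at 24 h (0.79 ± 0.10, adjusted p = 1.6e-07). At 48 h the arrays overlapped DMSO and the call (0.34 ± 0.10, adjusted p = 0.0040) was lost without DMSO replicate 3 (0.18, adjusted p = 0.066), in the mean of both probe sets (0.19, adjusted p = 0.34) and on external controls (0.07). At such a signal the presence of the transcript in MKN-45 is itself uncertain. The response was larger in EBC-1 than in MKN-45 by 1.01 ± 0.14 and 1.78 ± 0.14, and larger than in HCC827 at 48 h by 1.27 ± 0.14 (adjusted p of 2.1e-06, 1.3e-10 and 3.8e-08).

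IGFBP2, another IGF carrier of serum, was above the array median on all MKN-45 and all HCC827 arrays. In MKN-45 it read 8.79, 8.79 and 8.76 on DMSO, 9.04, 9.01 and 9.07 at 24 h, and 9.18, 9.02 and 9.04 at 48 h. All treated arrays were above DMSO by a narrow margin, 0.26 ± 0.11 (adjusted p = 0.037) and 0.30 ± 0.11 (adjusted p = 0.016). On external controls the 24 h difference turned to -0.04 and the 48 h one was 0.03, neither called. The 24 h call was also lost when any 1 of the 6 arrays in it was left out (adjusted p of 0.058 to 0.089), and the 48 h call without 48 h replicate 1 (adjusted p = 0.074). In HCC827 IGFBP2 read 6.15, 6.15 and 5.82 on DMSO, 5.81, 5.91 and 6.04 at 24 h, and 6.72, 6.40 and 6.53 at 48 h. The first 2 groups overlapped (-0.12 ± 0.11, adjusted p = 0.49, and -0.18 without replicate 3) and the 48 h arrays were higher by 0.51 ± 0.11 (1.43-fold, adjusted p = 9.2e-04). In EBC-1 all 9 arrays read 3.65 to 4.13, below the array median, with -0.19 ± 0.11 at 24 h (adjusted p = 0.13, but called on external controls at -0.51, adjusted p = 5.8e-04) and a call at 48 h (-0.31 ± 0.11, adjusted p = 0.015) that was lost without 48 h replicate 1 (adjusted p = 0.085) or 3 (adjusted p = 0.080).

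IGFBP4, which limits IGF action until the protease PAPPA cleaves it, stayed near the array median in every group. MKN-45 read 5.46, 5.74 and 5.78 on DMSO, 5.41, 5.41 and 5.20 at 24 h, and 5.27, 5.32 and 5.15 at 48 h. All treated arrays were below DMSO, and IGFBP4 fell by 0.32 ± 0.10 (adjusted p = 0.0060) and by 0.41 ± 0.10 (adjusted p = 6.4e-04). In EBC-1 the 9 arrays read 4.99 to 5.31 and the groups overlapped, at -0.05 ± 0.10 (adjusted p = 0.72) and 0.09 ± 0.10 (adjusted p = 0.45), but on external controls both were called lower, at -0.36 (adjusted p = 0.014) and -0.31 (adjusted p = 0.033). In HCC827 the 9 arrays read 5.97 to 6.31, with 0.04 ± 0.10 and 0.18 ± 0.10 (adjusted p = 0.84 and 0.21), and 0.10 at 24 h without replicate 3. The probe set used is of the kind Affymetrix marks as open to cross-hybridisation.

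IGFBP6, a binding protein with a preference for IGF2, was above the array median on all HCC827 arrays and did not pass the test there. The 9 arrays read 8.32 to 8.74, with 0.06 ± 0.14 and -0.07 ± 0.14 (adjusted p = 0.80 at both times), and -0.04 at 24 h without replicate 3. In the other lines it was below the array median on all 18 arrays. EBC-1 read 4.22, 4.36 and 4.25 on DMSO, 4.64, 4.65 and 4.66 at 24 h, and 3.79, 3.72 and 3.51 at 48 h, so that the groups did not overlap and the sign turned with time. The differences were 0.37 ± 0.14 and -0.61 ± 0.14 (adjusted p = 0.027 and 6.1e-04). The 24 h call was lost without DMSO replicate 1 or 3 or 24 h replicate 2 or 3 (adjusted p of 0.056 to 0.075) and on external controls (0.06). MKN-45 read 3.59, 3.63 and 3.81 on DMSO, 3.69, 3.28 and 4.11 at 24 h, and 4.28, 4.35 and 4.02 at 48 h. The 24 h arrays spread over both sides of DMSO (0.02 ± 0.14, adjusted p = 0.94), and the 48 h call (0.54 ± 0.14, adjusted p = 0.0018) was lost on external controls (0.27, adjusted p = 0.11). An offset of 64 on the linear scale, which damps dim signals, also removed the 48 h calls in EBC-1 and MKN-45 (-0.12 and 0.11).

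In HCC827 the 9 genes together gave 0 calls at 24 h with limma, beside 0.0323% of all genes called higher and 0% called lower. At an unadjusted p under 0.05, 2 of the 9 (IGFBP3 and IRS2) and 1013 and 1601 of all genes were past it upward and downward. The count was also 0 without replicate 3, and 1 and 2 without replicates 1 and 2. At 48 h, 5 rose (INSR, IGF1R, IGF2R, IGFBP2, IGFBP3) and 1 fell (IRS1), beside 11.6% and 10.7% of all genes. No change reached 2-fold, which 0.638% of all genes did. Not all probe sets of these genes were called there: 3 of 4 were for INSR, 1 of 4 for IGF1R (-0.26 to 0.51), 1 of 3 for IGF2R (0.15 to 0.24), 1 of 3 for IRS1 (-0.26 to 0.06) and both for IGFBP3.

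The difference between lines was tested directly for each gene. Between EBC-1 and MKN-45 the response differed for 6 of 9 genes at 24 h (42.1% of all genes) and 7 of 9 at 48 h (49%). The responses of IRS2, IGF1R and IGFBP3 were higher in EBC-1, and that of IRS1 was lower there, at both times. For IGF1R the dimmer probe sets were not all called, as given above. IGFBP4 and IGFBP6 missed the threshold at 24 h and were called without 1 MKN-45 array each (DMSO replicate 1 for IGFBP4, adjusted p = 0.029, and 24 h replicate 3 for IGFBP6, adjusted p = 0.011). INSR and IGF2R were the 2 genes without a call at 48 h, although the mean of the 3 IGF2R probe sets gave -0.29 and -0.48 at the 2 times (adjusted p = 0.0037 and 1.9e-05). At 48 h EBC-1 and HCC827 differed for 8 of 9 genes (48.7% of all genes) and MKN-45 and HCC827 for 7 of 9 (51.1%). IGF2R stood 0.26 ± 0.08 further up in EBC-1 than in HCC827 (adjusted p = 0.0060), but on external controls this turned to -0.18 and was not called. The larger IGF2R response in MKN-45 than in HCC827 (0.32 ± 0.08) was 0.00 there. IGFBP6, dim in EBC-1, responded lower there than in HCC827 by -0.54 ± 0.20 (adjusted p = 0.029), a call lost without any 1 of 5 arrays, namely EBC-1 DMSO replicate 2 or 48 h replicate 3, and HCC827 DMSO replicate 1 or 3 or 48 h replicate 2 (adjusted p of 0.050 to 0.082).

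From 24 h to 48 h, 3 of 9 genes changed in EBC-1 (11.1% of all genes), 5 in MKN-45 (24.3%) and 7 in HCC827 (26.5%). INSR rose further in all 3 lines, by 0.44 ± 0.07, 0.84 ± 0.07 and 0.54 ± 0.07 (adjusted p = 1.9e-04, 7.2e-09 and 1.3e-05), although the EBC-1 call was lost on external controls (0.37, adjusted p = 0.068). In EBC-1 IGFBP3 was also higher at 48 h (0.32 ± 0.10, adjusted p = 0.034), a call lost without any 1 of 5 of the 6 treated arrays (adjusted p of 0.074 to 0.17), and IGFBP6 fell by 0.98 ± 0.14 (adjusted p = 2.9e-05). IRS1 in EBC-1 (-0.19 ± 0.07, adjusted p = 0.095) was called once the odd HCC827 array was left out of the shared spread (adjusted p = 0.014). In MKN-45 IRS1 rose by 0.41 ± 0.07 (adjusted p = 1.1e-04), back to its DMSO level, and IGFBP3 fell by 0.45 ± 0.10 (adjusted p = 0.0014). IGF1R (0.39 ± 0.13, adjusted p = 0.026) and IGFBP6 (0.52 ± 0.14, adjusted p = 0.0078) were higher there, and both calls were lost without 24 h replicate 2 (adjusted p = 0.14 and 0.089). IGF1R also lost its call without 48 h replicate 3 (adjusted p = 0.16). In HCC827 IGFBP2 rose by 0.63 ± 0.11, IGFBP3 by 0.48 ± 0.10, IGF1R by 0.45 ± 0.13 and IGF2R by 0.23 ± 0.05 (adjusted p of 1.1e-04 to 0.010). Without the odd replicate 3 these were 0.69, 0.45, 0.39 and 0.24, with INSR at 0.45 and IRS1 at -0.32, and all 6 were still called. IRS2 was at 0.32 ± 0.10 (adjusted p = 0.025), with the call lost without the odd replicate 3 (0.19, adjusted p = 0.12) and without 48 h replicate 2 or 3 (adjusted p = 0.061 and 0.094). IRS1 fell by 0.25 ± 0.07 (adjusted p = 0.011), with 0.09 in the mean of its probe sets and the call lost without 24 h replicate 1 or 48 h replicate 2 (adjusted p = 0.054 and 0.052) and on external controls (-0.12).

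On DMSO, EBC-1 and MKN-45 differed in all 9 genes, beside 67.6% of all genes. EBC-1 was higher in IGFBP3 by 6.45 ± 0.10 and in IRS1 by 2.10 ± 0.07, and also in IGF2R (0.98 ± 0.05) and IGFBP6 (0.60 ± 0.14). For IGF2R the probe sets disagreed, with the dimmest one called the other way (-0.78, adjusted p = 2.1e-08), so the direction of that difference is not settled. It was lower in IGF1R (-4.89 ± 0.13), IGFBP2 (-4.69 ± 0.11) and IRS2 (-3.58 ± 0.10), and to a lesser extent in IGFBP4 (-0.54 ± 0.10) and INSR (-0.22 ± 0.07). The sizes depend on the probe set, since the second one gave 3.20 for IGFBP3 and -2.77 for IGFBP4, and of the 4 for INSR only the brightest was called. On the brightest probe sets all adjusted p were 0.010 or below, and in each gene all 3 arrays of 1 line were above all 3 of the other. The INSR difference was not called without replicate 3 of either line's DMSO group (adjusted p = 0.055 and 0.057) or on external controls (adjusted p = 0.23). On the brightest probe sets 5 of the 9 genes differed at least 2-fold, beside 24.7% of all genes. Of these, IGFBP3 and IRS1 were higher in EBC-1, and IGF1R, IRS2 and IGFBP2 in MKN-45. IRS1 was still above the array median on all MKN-45 arrays on DMSO, and IRS2 on all EBC-1 arrays on DMSO.

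The other probe sets of the genes were read as a check, with 22 of the 28 passing the filter. For INSR all 4 that passed were called higher in EBC-1 and MKN-45 at both times, at 1.29 to 2.75. Both IRS2 probe sets were called in the same direction in these 4 comparisons, at 3.06 to 3.20 in EBC-1 and -0.43 to -0.61 in MKN-45. All 3 of IGF2R were called higher, and the dimmest of them rose by 1.27 and 1.5 in MKN-45, well above the 0.46 and 0.51 of the brightest. For IGF1R, 3 of 4 were called higher in EBC-1, at 0.47 to 2.53 at 24 h and 0.82 to 2.67 at 48 h, and the fourth gave 0.04 and 0.17. For IRS1, 2 of 3 were called lower in EBC-1, and the third, at -0.25 and -0.28, was not. Both IGFBP3 probe sets rose in EBC-1, by 1.80 and 1.9 at 24 h, but the dimmer one gave -0.01 and 0.04 in MKN-45. The dimmer IGFBP4 probe set fell further in MKN-45, by 0.76 and by 1.02. IGFBP2 and IGFBP6 have 1 probe set each. In the 6 comparisons of SGX-523 with DMSO, no probe set was called against the direction of its gene's brightest one.

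**Figure D3:**
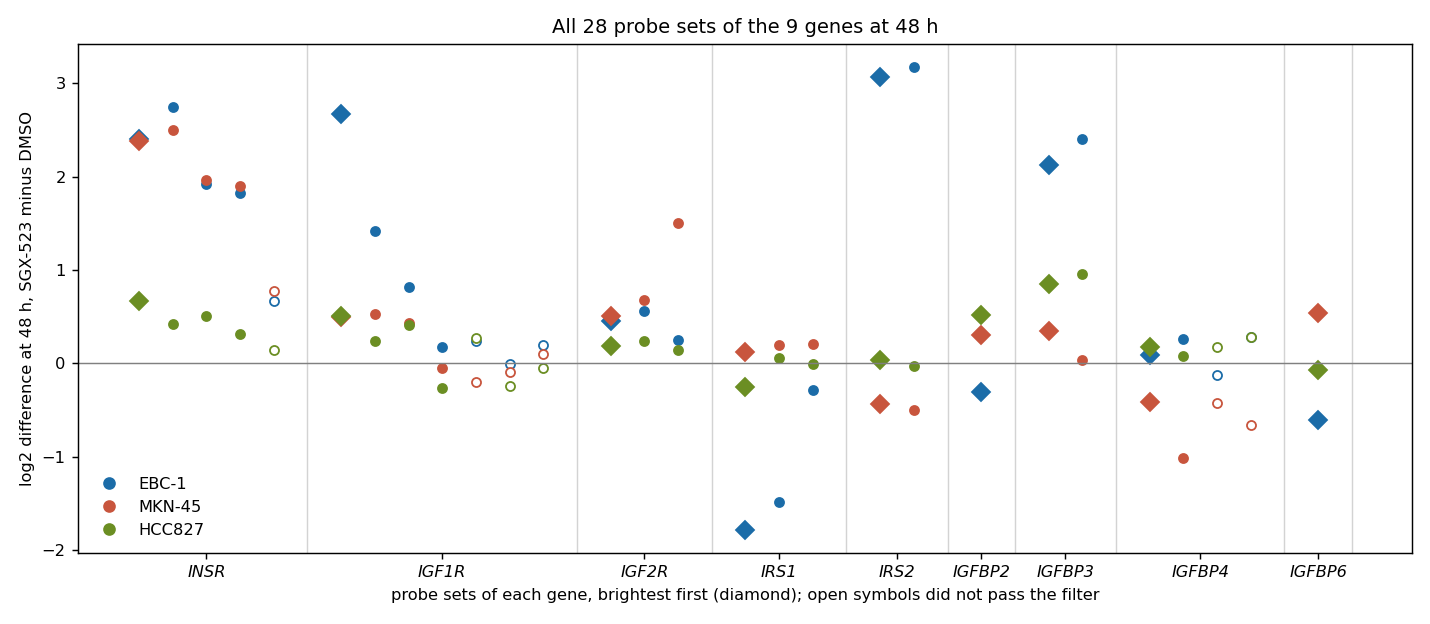
Log2 difference between SGX-523 and DMSO at 48 h for all 28 probe sets of the 9 genes, by line (colour), with the brightest probe set of each gene as a diamond and open circles for probe sets that did not pass the filter. The 4 passing INSR probe sets lie at 1.83 to 2.75 in EBC-1 and MKN-45 and at 0.31 to 0.67 in HCC827, and the IRS2 pair lies above 3 in EBC-1 and below 0 in MKN-45.

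The wider pathway was read through 72 other genes in 9 lists, of which 55 were tested. In EBC-1, 26 rose and 14 fell at 24 h and 23 rose and 13 fell at 48 h, with medians of 0.21 and 0.20 against 0.04 and 0.07 over all genes. In MKN-45 the counts were 23 and 18, then 23 and 17, with medians of -0.04 and -0.02 against 0.05 and 0.06. HCC827 had 0 calls at 24 h and 13 higher and 3 lower at 48 h. The shares of all genes called in each direction are those given above. Of the ligands, IGF1 reached the array median on at most 1 of 27 arrays and was not tested, and INS and IGF2 were not analysed here for want of a probe set with a single symbol.

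The genes named for the size of their change at 48 h sit mostly below the receptors. So do most genes of the lists they were drawn from, so that position is not a result. PIK3IP1, which inhibits the catalytic subunit of PI3K, rose by 3.71 ± 0.14 and 3.83 ± 0.14 in EBC-1 and by 4.21 and 4.35 in MKN-45 (14.2-fold and 20.4-fold at 48 h), and by 0.47 at 48 h in HCC827. Its DMSO means were dim, at 5.53 in EBC-1 and 5.16 in MKN-45, so the folds are less sure than the direction. PIK3R3, a regulatory PI3K subunit, rose by 2.60 ± 0.06 and 2.95 ± 0.06 in EBC-1, by 3.82 and 3.79 in MKN-45 and by 0.79 at 48 h in HCC827. In the list of PI3K, phosphatases and AKT, 6 of 12 tested genes rose at each time in both lines, with 2 and 3 lower in EBC-1 and 4 lower in MKN-45. TRIB3, a pseudokinase that binds AKT, fell by 1.49 ± 0.12 and by 1.80 ± 0.12 in EBC-1 and by 0.57 and by 0.60 in MKN-45. The 8 genes in this account were taken by a fixed rule of size.

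FOXO3, a transcription factor held in check by AKT, rose by 1.86 ± 0.05 and 1.85 ± 0.05 in EBC-1 and by 1.54 and 1.5 in MKN-45. It was -0.09 and 0.07 in HCC827 (adjusted p = 0.33 and 0.42). Of the 3 FOXO genes tested, 2 rose in EBC-1 at each time, 2 rose and 1 fell in MKN-45 at 24 h, and 1 rose and 1 fell at 48 h. SESN1, a sestrin that restrains mTORC1, rose by 0.93 ± 0.11 at both times in EBC-1 and by 1.61 and 1.78 in MKN-45, with -0.20 and -0.23 in HCC827, not called. DEPTOR, an mTOR-binding inhibitor, went opposite ways, like IRS2 but with the lines exchanged. It fell by 1.03 ± 0.10 and by 1.22 ± 0.10 in EBC-1 and rose by 2.79 and 3.20 in MKN-45 and by 1.03 at 48 h in HCC827. In the list of TSC, mTOR and S6 kinases, 4 rose and 6 fell of 11 in EBC-1, and 5 rose and 4 fell in MKN-45, at each time.

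ENPP1, a membrane enzyme known to inhibit the insulin receptor, rose in EBC-1 by 2.79 ± 0.10 and 2.96 ± 0.10, from 4.33 on DMSO to 7.29 at 48 h. From so dim a start the size is less sure than the direction. In MKN-45 ENPP1 was higher by 0.41 at 24 h (adjusted p = 9.5e-04) and lower by -0.27 at 48 h (adjusted p = 0.019). Of the 10 receptor regulators tested, 7 rose and 3 fell in EBC-1 at 24 h and 5 rose and 1 fell at 48 h, against 6 and 2, then 7 and 2, in MKN-45. STC2, a stanniocalcin that inhibits the proteases of the binding proteins, fell in MKN-45 by 1.94 ± 0.14 and by 1.91 ± 0.14 (3.85-fold and 3.76-fold). It was 0.17 and -0.03 in EBC-1 and -0.06 and -0.10 in HCC827, not called. Of the 5 other IGF binding proteins, 2 rose in EBC-1 at each time, and 1 rose and 1 fell in MKN-45 at each time. Of the 6 adaptors tested, 2 rose in EBC-1 and 3 in MKN-45 at each time, while 2 fell at 24 h and 1 at 48 h in each line.

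For the 4 genes called in both MET-dependent lines at both times, the genes with the most similar pattern were sought by Pearson's r over 27 arrays after the mean of each line was removed. The arrays share the treatment and the 3 lines, and the values are a description. INSR was most like FHIP2A (0.983), TSC1 (0.982) and KCNK5 (0.981), with r of 0.981 to 0.990 within EBC-1 and 0.987 to 0.990 within MKN-45. IGF2R was most like CDK19 (0.973), TTC3 (0.970) and N4BP2L1 (0.968). IGFBP3 was most like TFPI (0.972), TSPAN1 (0.966) and ID3 (0.963). IRS2 was most like SLC44A3 (0.971), EIF4EBP2 (0.969) and KCNC4 (0.965), but this rests on EBC-1, since within MKN-45 these were 0.09, 0.78 and 0.48 over 9 arrays.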

How the data were processed

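RNA taken up in TRIZOL and cleaned on columns was hybridised as biotin-labelled cRNA to 27 Affymetrix arrays, per the labels' protocols. The authors deposited 1 log2 value per probe set and array (1.87 to 14.38). Per the submitters' processing notes MAS5 was among the tools, without a stated role. How the arrays were normalized was not given in the sources used here. Groups follow the titles, because the cell line number in the source name of some DMSO arrays increases from array to array. Probe sets with 1 annotated gene (44988 of 49395, with 44961 matched to RefSeq by Entrez ID) were used where they reached the array median on at least 3 arrays. This left 27365 probe sets and 12386 genes, each read by its brightest probe set. limma 3.58.1 in R 4.3.3 (lmFit, eBayes with trend) was fitted to 9 group means with 18 residual degrees of freedom, for 14 comparisons, with Benjamini-Hochberg adjustment and a threshold of 0.05. The scripts were tested on simulated data. A planned pseudocount was not needed, since the values were already logarithms. Named genes are the 9 members, the 8 other pathway genes taken by size of change at 48 h, and the 3 most similar genes by r. The members, gene lists and tests were chosen with earlier results of these data known. Array number (3 a group) limits the precision. Alternatives were other normalizations, filters, offsets, probe set rules, fits, a replicate block and leaving out each array. Replicate numbers did not pair the arrays.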

Additional observations from a re-analysis of the deposited data

Results flagged for a closer look

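The values below are differences between lines in the response to SGX-523, in log2 units, taken from limma's test of that difference, with an adjusted p under 0.05. For INSR the response was larger in EBC-1 than in MKN-45 by 0.42 at 24 h, and larger than in HCC827 by 1.73 in EBC-1 and 1.71 in MKN-45 at 48 h. The 24 h difference was not called on external controls. The other INSR probe sets that passed the filter gave 0.62 for it, called, and 0.07 and 0.23, not called. For IGF1R the EBC-1 response was larger than that of MKN-45 by 2.42 at 24 h and 2.17 at 48 h, and than that of HCC827 by 2.17 at 48 h. The dimmest IGF1R probe set that passed the filter gave -0.16, 0.21 and 0.43 for these, none called. For IGF2R the response at 48 h was larger than in HCC827 by 0.26 in EBC-1 and 0.32 in MKN-45, and neither was called on external controls.

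For IRS1 the EBC-1 response differed from MKN-45 by -1.30 and -1.90 and from HCC827 by -1.52, and MKN-45 differed from HCC827 by 0.38, which was 0.06 on external controls. For IRS2 the EBC-1 response differed from MKN-45 by 3.81 and 3.50 and from HCC827 by 3.03, and MKN-45 differed from HCC827 by -0.47. On the brightest probe sets IRS1 and IRS2 thus differed in opposite directions in each of these pairs of lines. For MKN-45 against HCC827 the other IRS1 probe sets gave 0.14 and 0.21, neither called. The dimmest IRS1 probe set gave -0.28 for EBC-1 against HCC827, also not called.

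For IGFBP2 the EBC-1 response differed from MKN-45 by -0.45 and -0.61 and from HCC827 by -0.82. For IGFBP3 the EBC-1 response differed from MKN-45 by 1.01 and 1.78 and from HCC827 by 1.27, and MKN-45 differed from HCC827 by -0.51. For IGFBP4 at 48 h EBC-1 differed from MKN-45 by 0.50, with the call lost on external controls, and MKN-45 from HCC827 by -0.59. For IGFBP6 at 48 h EBC-1 differed from MKN-45 by -1.15 and from HCC827 by -0.54, and MKN-45 from HCC827 by 0.61, which was not called on external controls. IGFBP2 in EBC-1, IGFBP3 in MKN-45 and IGFBP6 in both lay below the array median on all arrays of those lines.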

How the results depend on the processing

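Of 126 results for single genes, 69 kept their direction and side of the threshold under all 39 other settings, 27 of which leave out 1 array each. With arrays centred on external controls, 4 of the 9 genes were called at 48 h in MKN-45 (8 on the deposited scale) and 1 between 48 h and 24 h in EBC-1 (3 on the deposited scale). Under it IGFBP4 at 48 h in EBC-1 reversed to -0.31, IGFBP2 at 24 h in MKN-45 to -0.042, and the difference between EBC-1 and HCC827 for IGF2R to -0.18. With an offset of 64 on the linear scale, 1 gene (IGFBP3) was called at 24 h in HCC827, and 3 between 48 h and 24 h in MKN-45. With the mean of all kept probe sets, 3 were called in that last comparison, IRS1 between 48 h and 24 h in HCC827 reversed to 0.092, and the difference between EBC-1 and MKN-45 for IGF2R at 24 h to -0.29. A separate fit per line gave 4 calls between 48 h and 24 h in HCC827. Leaving out 1 array gave 0 to 2 calls at 24 h in HCC827 and 3 to 5 between 48 h and 24 h in MKN-45. The cause of these changes was not tested. With the replicate number as a block, the counts were 7, 8, 7, 8, 0 and 6 for the 6 drug comparisons, as without it, and no call of the 126 changed. Once group means were removed, same-numbered arrays from different groups of a line correlated at -0.20 to 0.16, with 5 of 27 pairs over 0.1. Pairs with other numbers gave -0.19 to 0.18, with 7 of 54 over 0.1, so the numbers were not taken as pairs. Below the array median, a log2 difference is limited by signal over background.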
